A study of Homo sapiens with 3 samples.

Results

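ldR-H460, the long-term derivative of the H460 line, was compared with parental H460 over all cells of both libraries, 4956 ldR-H460 and 4531 H460 cells of the 14638 cells in the series. H460 is an established human large-cell lung carcinoma line, known to carry a mutation in KEAP1, which encodes the protein that holds the antioxidant factor NRF2 in check. The labels give ldR-H460 as the long-term and mdR-H460 as the mid-term dR-H460 line, and their growth protocol describes preparing reprogrammed cancer cells with irradiated human fibroblasts as feeders and bFGF-Pluriton medium. Reprogramming aims at a less differentiated state, in which factors such as POU5F1 and SOX2 are active. How long each line was kept and how it left the feeders is not analysed here. Each line was profiled once by droplet single-cell RNA sequencing, in which a UMI (unique molecular identifier) marks 1 captured transcript. Values of mdR-H460 (5151 cells, 1 library) stand beside some of them, and both derivatives share the 1 H460 library as their reference. No label says whether a line was a clone or how many cultures were pooled. With 1 library per line there is no replicate, so no difference below carries a p-value, and all intervals cover counting error only.

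The libraries held 66192074 UMIs in H460 and 60468481 in ldR-H460, with medians of 14685 and 12342.5 UMIs and 3083 and 2673 detected genes per cell. The H460 table had 681 cells with 4000 or more detected genes and the ldR-H460 table had none, so the tables differ in their upper tail of depth. Both libraries carried 36 cell barcodes in common, 0.726% of the ldR-H460 barcodes. Mitochondrially encoded transcripts made up 4.80% of UMIs in H460 and 6.80% in ldR-H460. Calls of cell-cycle phase from marker genes put 36.1% of H460 and 16.1% of ldR-H460 cells in G1 and 27.8% and 49.5% in G2/M. Markers of other cells were low in both. The 10 fibroblast markers summed to 15.2 and 5.67 CPM (the UMI count scaled to a common library total), with 4 and 5 of them at 0. The 10 pluripotency markers summed to 1.03 and 6.70 CPM, with 7 and 6 of them at 0. POU5F1 was at 0 in both, so the higher sum in ldR-H460 came from other members of the list. Endothelial markers (0.0906 and 0 CPM) and alveolar or airway markers (0.0453 and 0 CPM) were at or near 0, and haematopoietic markers summed to 41.8 and 7.89 CPM. The 6 epithelial carcinoma markers summed to 3292 CPM in H460 and 1846 in ldR-H460. Of the 4 that reached 10 CPM, KRT19 was at least 2-fold lower and 1 was at least 1.5-fold higher. The epithelial keratins KRT8 (459 CPM in H460 and 494 in ldR-H460) and KRT18 (1079 and 1203 CPM) were present at like levels. EPCAM was near 0 in both (0.347 and 0.132 CPM).

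A change in the summed level of a transcript can come from a shift in nearly every cell or from a small group of cells that holds much of it. To keep these apart, the UMIs of a cell were sampled down to 5000, which left 3850 H460 and 4521 ldR-H460 cells and left out 681 and 435 shallower ones. A gene at least 2-fold apart in summed CPM was placed with the most-cells genes when 50% or more of the thinned cells of the higher library had a UMI. It was placed with the minority genes when the share of cells with a UMI was under 0.5 of the share that an equal level in every cell would give. Genes in neither class were mostly low, so that the 2 patterns could not be told apart at this depth. Below, rose and fell mean a change in summed CPM past the stated fold between these libraries. The share of cells that free RNA alone would mark could not be measured, since neither table holds a cell type that should lack these genes.

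Among 6556 genes that reached 10 CPM in either line, 218 (3.33%) were at least 2-fold higher in ldR-H460 and 523 (7.98%) at least 2-fold lower, so that 70.6% of the calls were lower. The split depended on scaling. With TMM factors 276 genes were higher and 426 lower, 60.7% lower, because that scaling moved the median log2 ratio of all genes from -0.12 to -0.01. The most-cells class held 23 higher and 63 lower genes, the minority class 1 higher and 9 lower, and 194 and 451 genes fell in neither, with a median of 22.1 and 27.5 CPM in the higher library. All 23 and all 63 most-cells genes were still at least 2-fold apart when the 5% of cells with the most UMIs of a gene were left out of each library. So were all 194 and all 451 genes in neither class, so this check does not set the most-cells genes apart. All kept their sign among cells called G1, where 18 of the 23 and 58 of the 63 were still at least 2-fold apart. With TMM factors the 23 were still 2-fold higher and 54 of the 63 still 2-fold lower.

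A most-cells gene was seldom gone from the other line. Of the 63 lower genes, 46 had a UMI in 5% to 50% of ldR-H460 cells, 17 in at least 50%, and none in under 5%. Of the 23 higher genes, 18 and 5 were in these ranges in H460. The level in cells that had the gene moved as well as their number. For the lower genes, the median log2 change was -0.81 in the share of cells and -0.72 in UMIs per positive cell, and for the higher genes it was 0.83 and 0.53.

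**Figure D1:**
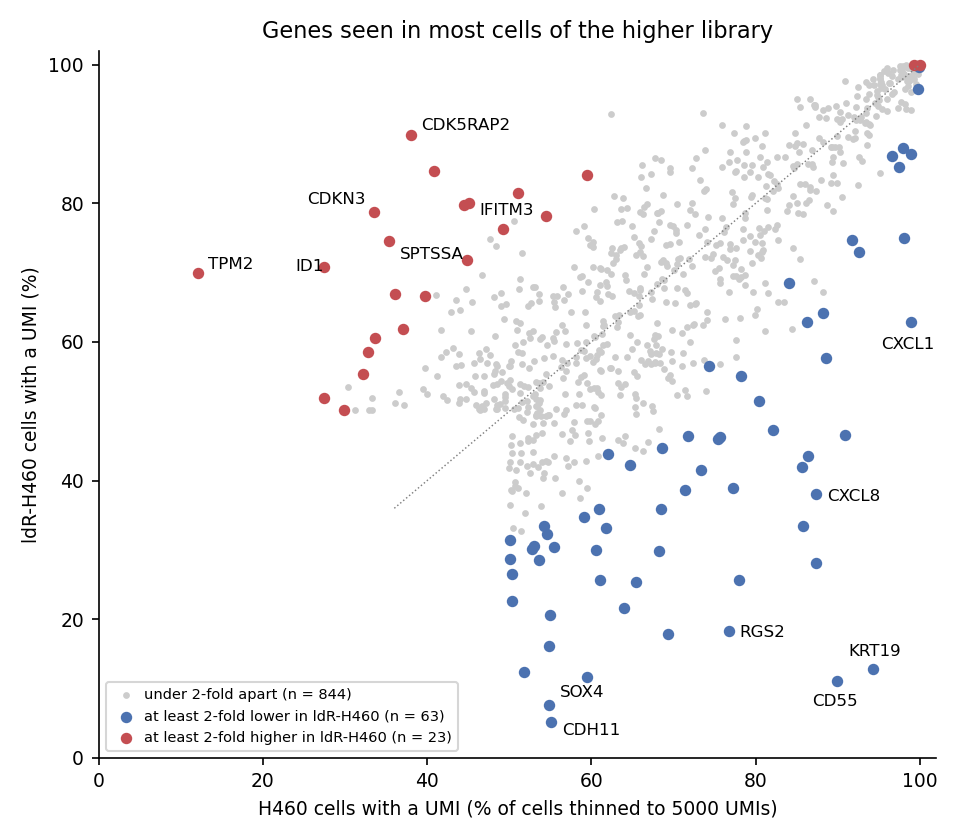
Percent of thinned cells with a UMI in H460 (x axis) and ldR-H460 (y axis), each point 1 gene of the most-cells class by its higher library, grey when under 2-fold apart. KRT19 and CD55 lie far below the diagonal (94.3% and 89.9% of H460 cells against 12.8% and 11.1%), and TPM2 and CDK5RAP2 far above it.

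The deepest losses across most cells were those of KRT19, CD55, CDH11 and SOX4. Keratin 19 (KRT19), an intermediate filament protein of simple epithelia, had 1696 CPM in the parental line, 194 in mdR-H460 and 40.3 in ldR-H460, a 42.1-fold loss from the parental to the long-term line (counting interval 40.4 to 43.8). It was seen in 94.3% of H460 cells, at a mean of 9.51 UMIs per positive cell, and in 12.8% of ldR-H460 cells, at 1.79. The keratins KRT8 and KRT18 did not follow it. CD55, which protects cells from complement, stood at 783, 84.2 and 23.2 CPM in the same order and was 33.7-fold lower in ldR-H460 (32.0 to 35.6), with its cells going from 89.9% to 11.1%. CDH11, a cadherin of mesenchymal cells, fell from 167 to 12 CPM (13.9-fold, 12.9 to 15.0). In mdR-H460 it was lower than in either, at 0.120 CPM. The transcription factor SOX4 stood at 190 and 16.6 CPM and went from 54.9% to 7.63% of cells.

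Lower in most cells as well were RGS2, a brake on G-protein signalling (386 and 45.3 CPM), the creatine kinase CKB (247 and 27.3 CPM), the thioredoxin-related TMX4 (327 and 40.8 CPM), the exonuclease ISG20 (434 and 58.4 CPM), SCCPDH (499 and 69.7 CPM), SH3BGRL3 (537 and 82.0 CPM) and MFSD12 (162 and 25.6 CPM). Of these 7 genes, all had mdR-H460 levels between the other lines. Galectin 3 (LGALS3), a secreted and cytoplasmic sugar-binding protein, was still in 87.2% of ldR-H460 cells against 98.9% of H460 cells, while its mean in positive cells went from 22 to 4.43 UMIs. S100A6 was the plainest shift in level with no loss of cells. It was seen in 99.84% of H460 and 99.69% of ldR-H460 cells, at 25.7 and 9.16 UMIs per positive cell, for 4744 and 1710 CPM. TIMP1, the tissue inhibitor of metalloproteinases, chosen after its values were seen, went from 1898 to 336 CPM with a UMI in 98.1% and 75.0% of cells.

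A KRT19 UMI was still seen in 580 ldR-H460 cells, and some other lost genes were more frequent in those with 2 or more. In these 196 cells, CD55 was seen in 18.4%, CDH11 in 12.8% and SOX4 in 16.3%, against 10.7%, 4.79% and 7.24% of the other 4325 cells. Among lower chemokines, CXCL8 was in 63.3% against 36.9%, but CXCL3 was in 6.63% against 10.1% and CCL20 in 11.2% against 11.1%. Fibronectin (FN1), within 1.5-fold between the lines, was more frequent too, in 68.9% against 57.3%. The 196 cells had a lower median depth before thinning, 11096 against 12863 UMIs. The part of free RNA or of shared barcodes in these UMIs was not tested.

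The largest gains across most cells were those of TPM2 and CDK5RAP2. TPM2, the beta-tropomyosin of actin filaments, rose from 30.4 to 258 CPM (8.48-fold, 8.10 to 8.89; 197 CPM in mdR-H460) and from 12.1% to 69.96% of cells. TMSB4X, which binds actin monomers, rose from 2819 to 7441 CPM with a UMI in nearly every cell of both lines, from 15.6 to 40.9 UMIs per positive cell. CDK5RAP2, a centrosome protein that anchors microtubule nucleation, had 110 CPM in the parental line, 1085 in the mid-term and 810 in the long-term line and was 7.36-fold higher in ldR-H460 (7.18 to 7.54). Its cells went from 38.1% to 89.9%.

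CDKN3, a phosphatase of cyclin-dependent kinases, stood at 114 and 398 CPM, and PTTG1 (securin), which restrains the separation of sister chromatids, at 181 and 501 CPM. Both are known to vary over the cell cycle, and ldR-H460 had more cells called G2/M. Within cells called G1 the log2 ratio was 2.35 for CDKN3 and 1.91 for PTTG1, against 1.81 and 1.47 over all cells. The list of G2/M genes as a whole moved less: 10 of its 50 members at 10 CPM or more were at least 1.5-fold higher and 3 lower, with a median log2 ratio of 0.24, beside 8.57% of all genes higher and 18.9% lower at 1.5-fold and a median of -0.12. CENPA (18.7 and 51.9 CPM) and CCNB2 (23.6 and 59.2 CPM) led it, while MKI67 was level (94.8 and 93.4 CPM). In the S-phase list 9 of 38 genes were lower and 1 higher.

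The inhibitors of differentiation ID1 and ID3, direct targets of BMP signalling that block other helix-loop-helix factors, were among the genes gained across most cells. ID1 rose from 79.7 to 305 CPM (317 in mdR-H460) and from 27.5% to 70.8% of cells, and ID3 from 179 to 468 CPM (465 in mdR-H460) and from 51.0% to 81.4%. In the same list of 12 measured BMP and TGF-beta response genes, ID4 (0.725 and 24.9 CPM) and ATOH8 (1.09 and 16.4 CPM) were higher, 4 in all with ID1 and ID3, and 6 were lower at 1.5-fold (8.57% and 18.9% of all genes), among them INHBA, a subunit of activin (23.1 and 0.281 CPM, 82.1-fold), and FST, the activin-binding follistatin (122 and 4.96 CPM, 24.5-fold). ID2 went the other way from ID1 and ID3, from 174 to 82.0 CPM.

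Ferritin light chain (FTL), which stores iron, had the largest gain in CPM, from 12389 to 29539, and a UMI in every thinned cell of both lines, at a mean of 62.6 and 150 UMIs. Ferritin heavy chain (FTH1) went from 7103 to 10459 CPM. In the list of aldehyde-handling and NRF2-target enzymes, 8 of 28 measured members were at least 1.5-fold higher and 3 lower, beside 8.57% and 18.9% of all genes (median log2 ratio 0.38, against -0.12 for all genes). FTL was 1 of the 8. The higher ones also included ALDH3A1, an aldehyde dehydrogenase (162 and 347 CPM), and AKR1C2, an aldo-keto reductase whose reads can be shared with near-identical copies (104 and 234 CPM). The lower ones were AKR1B10 (744 and 306 CPM), ALDH1A1 and PRDX1, and 2 classical NRF2 targets, NQO1 (1189 and 827 CPM) and TXNRD1 (488 and 369 CPM), were lower by less than 1.5-fold. Also higher in most cells were IFITM3, a membrane protein that limits virus entry (141 and 374 CPM), the metallothionein MT2A (179 and 460 CPM, a gene with near-identical copies), SPTSSA, a subunit of the enzyme that starts sphingolipid synthesis (90.6 and 316 CPM), and the histone chaperone NPM3 (204 and 466 CPM).

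Of the 10 genes that met the minority rule, 9 were lower in ldR-H460, with much of their UMIs in a small group of H460 cells. The 194 higher and 451 lower genes in neither class could not be sorted this way. The 10 minority genes were all at least 2-fold apart, out of 6556 genes tested, since no gene under 2-fold apart met the minority rule. PAEP, the secreted glycoprotein glycodelin, had 113 CPM in H460, 1.22 in mdR-H460 and no UMI in ldR-H460, which makes H460 at least 2287-fold higher against a floor of 3 UMIs per library. In H460 it was seen in 10.4% of cells, its UMIs ranged up to 181 in 1 cell, and 41 cells held 50% of them. No UMI in 4521 thinned ldR-H460 cells allows up to 0.0816% of such cells to show a UMI (exact binomial limit), which does not bound the share of cells that express PAEP at a low level. S100A8 and S100A9, the subunits of calprotectin, had 124 and 363 CPM in H460, 84.7 and 509 in mdR-H460 and 0.265 and 2.13 in ldR-H460. S100A8 was in 5.43% of H460 cells with 50% of its UMIs in 22 cells, and in 3 ldR-H460 cells. The collagenase MMP1 was seen in 154 H460 cells and had no UMI in either derivative.

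**Figure D2:**
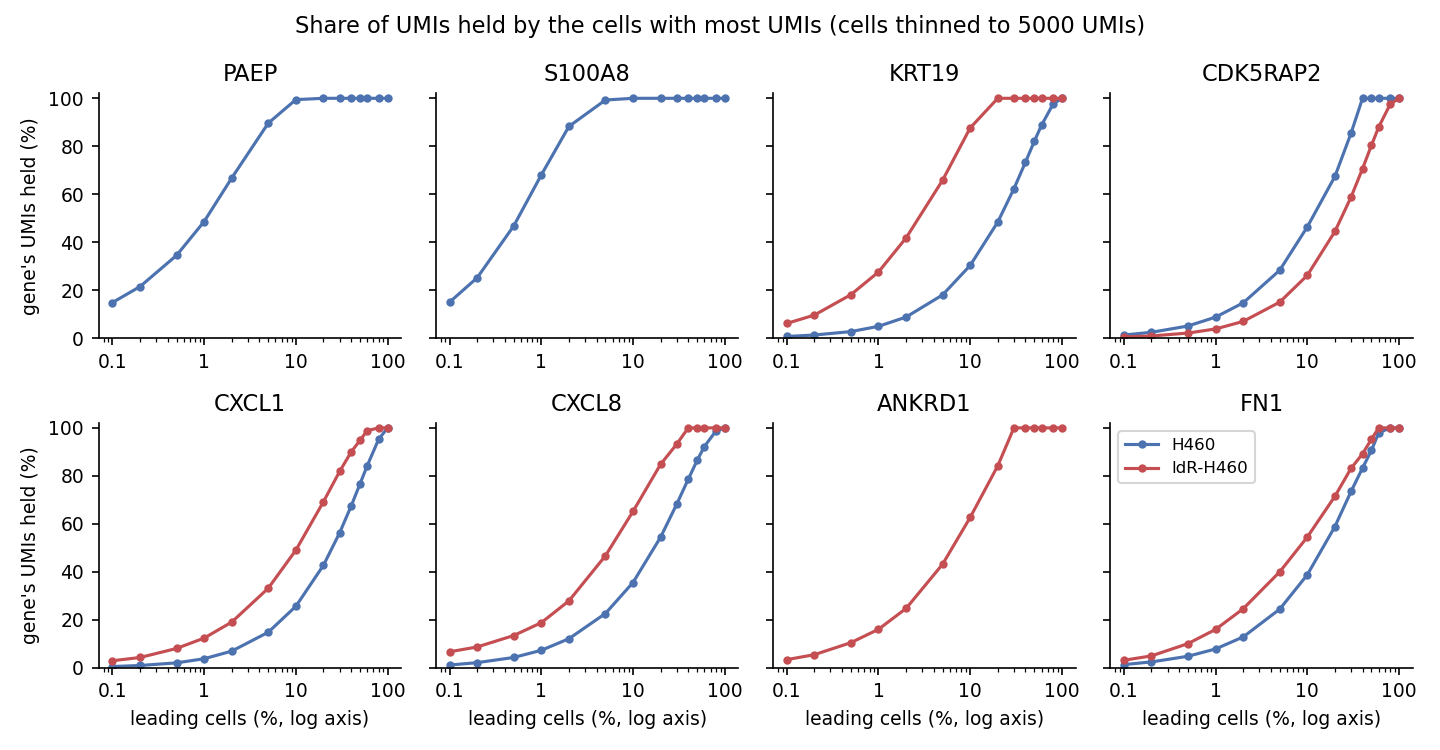
Percent of a gene's UMIs (y axis) held by the given percent of thinned cells, taken from the cell with most UMIs downward (x axis, log scale), for 8 genes; a library is drawn only where it had enough UMIs. S100A8 and PAEP reach most of their UMIs within a few percent of H460 cells, KRT19 and CXCL8 are more concentrated in ldR-H460 than in H460, and CDK5RAP2 is less so. The share held by the leading cells also rises as the level of a gene falls, and the curves are not adjusted for level.

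The genes of these H460 groups were partly seen in the same cells and partly apart. Of the 130 H460 cells with 2 or more S100A8 UMIs, 100% had S100A9, 93.1% SLPI, 70.8% PI3 and 37.7% FGG, against 13%, 30.6%, 15.0% and 3.39% of the other H460 cells. SLPI and PI3 are inhibitors of neutrophil elastase, and FGG is the fibrinogen gamma chain. The same cells had a PAEP UMI about as often as the rest (10.8% and 10.3%), at 63.1 against 133 CPM over thinned cells. They had KRT19 in 68.5% against 95.2%. Of the 236 cells with 2 or more PAEP UMIs, 61.0% had LCN1, a lipocalin of tears and saliva, against 39.1% of the others. LCN1 itself fell in neither class and went from 250 to 0.645 CPM, 387-fold (283 to 545), from 40.4% to 0.332% of cells. The 65 cells with 2 or more MMP1 UMIs had CRYAB, a small heat shock protein, in 21.5% against 10.9%, PAEP in 12.3% against 10.3% and S100A8 in 3.08% against 5.47%. Many of these shares rest on few cells.

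A stress group was the smallest. HSPA6, an inducible heat shock protein with almost no basal level in most cells, was seen in 36 H460 cells and 3 of them held 50% of its UMIs. The 15 cells with 2 or more HSPA6 UMIs had HSPA1A in 93.3%, DNAJB1 in 12 cells and DDIT3 in 73.3%, against 14%, 17.8% and 6.52% of the others. DDIT3, a transcription factor of the integrated stress response, shows how few cells can set a fold. It fell from 41.6 to 10.3 CPM, 4.06-fold, yet it was seen in 261 H460 and 227 ldR-H460 cells (6.78% and 5.02%), and 10 H460 cells held 50% of its UMIs. Without the leading 5% of cells its log2 ratio was -0.72 in place of -2.02. FGG went further. It was 2.41-fold lower in ldR-H460 (29.3 and 12.2 CPM) but seen in 4.55% of H460 and 4.64% of ldR-H460 cells, and without the leading 5% of cells the sign turned, to a log2 ratio of 1.48. As FGG was seen in under 5% of thinned cells, that ratio covers only what was left outside its main cells. For such genes the ratio moved in either direction, for PI3 from -3.92 to -9.47 and for S100A8 from -8.87 to -5.27. In mdR-H460 FGG stood at 233 CPM. SPINK6, a protease inhibitor of epithelia, was the 1 minority gene that was higher in ldR-H460, at 6.36 CPM in the parental, 63.1 in the mid-term and 18.2 in the long-term line, and 45 ldR-H460 cells held 50% of its UMIs.

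The chemokines were seen in fewer ldR-H460 than H460 cells, and fewer ldR-H460 cells held most of their UMIs. CXCL1, CXCL2, CXCL3 and CXCL8 attract neutrophils through the receptors CXCR1 and CXCR2, are encoded side by side on chromosome 4 and are known targets of NF-kappaB. CXCL2, CXCL3, CXCL8 and CCL20 were chosen after their values were seen. The stretch from 130 to 31 bases before the start of each CXCL gene is shown because the 4 genes moved together. In RefSeq's GRCh38.p14 promoters it reads as follows, in the direction of the gene, with the letters GGAATTTCC in capitals.
CXCL1 (chr4:73869263-73869362, plus strand): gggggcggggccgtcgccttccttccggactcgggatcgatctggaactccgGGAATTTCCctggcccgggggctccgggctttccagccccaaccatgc
CXCL2 (chr4:74099226-74099325, minus strand): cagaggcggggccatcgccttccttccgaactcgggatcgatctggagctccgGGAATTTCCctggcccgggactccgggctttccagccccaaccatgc
CXCL3 (chr4:74038720-74038819, minus strand): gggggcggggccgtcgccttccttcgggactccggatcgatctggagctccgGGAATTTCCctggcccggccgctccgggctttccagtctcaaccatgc
CXCL8 (chr4:73740439-73740538, plus strand): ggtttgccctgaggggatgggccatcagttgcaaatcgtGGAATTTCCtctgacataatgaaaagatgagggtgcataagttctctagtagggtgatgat
The run GGAATTTCC, searched on both strands of the 250 bases before the start, was in 145 of 35116 promoters (0.413%) and in 34 of the 7539 promoters matched to tested genes (0.451%). It began 78 bases before the start of CXCL1, 77 before CXCL2, 78 before CXCL3 and 91 before CXCL8, and CCL20 had no match. A match is a description of letters and not evidence of binding in these cells. CXCL1, CXCL2 and CXCL3 are near copies, so their UMIs can be partly exchanged.

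CXCL1 fell from 3410 to 461 CPM (7.4-fold, 7.31 to 7.50), with 1145 CPM in mdR-H460. It was seen in 98.9% and 62.9% of cells, and cells with 10 or more UMIs numbered 2738 in H460 and 234 in ldR-H460. The leading 1% of cells held 3.79% of its UMIs in H460 and 12.4% in ldR-H460. CXCL8 fell from 1048 to 239 CPM (4.39-fold, 4.31 to 4.47), with 747 in mdR-H460, and went from 87.4% to 38.0% of cells. The number of cells that held 50% of its UMIs went from 668 (17.4%) to 257 (5.68%), and the highest cell from 66 to 161 UMIs. CXCL2 (224 and 33.5 CPM, 49.8% and 8.98% of cells) and CXCL3 (85 and 37.6 CPM, 22.6% and 9.93%) were lower too. For CCL20, a chemokine for cells with CCR6, the levels were 125 and 55.4 CPM, with 230 in mdR-H460, the cells with a UMI 32.8% and 11.1%, the cells that held 50% of its UMIs 267 and 53, and the highest cell 29 and 165 UMIs. For CXCL3 the highest cell had 18 and 72 UMIs. Each of these maxima is 1 cell. The number of cells that held 50% of the UMIs and the share of the leading 1% also depend on the level of a gene. They were not adjusted for it. IL6 (166 and 9.05 CPM) was lost more fully, from 41.3% to 3.45% of cells with 5 UMIs at most in an ldR-H460 cell.

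In ldR-H460, cells rich in 1 chemokine more often had the others. Of the 158 cells with 2 or more CCL20 UMIs, 68.4% had CXCL8, 38.6% CXCL3 and 27.2% CXCL2, against 36.9%, 8.89% and 8.32% of the other 4363. The 904 cells with 2 or more CXCL8 UMIs also had IER3, an immediate early gene, in 56.6% against 30.7%, and ANKRD1 in 43.8% against 24.8%. Their median depth before thinning was near that of the other cells, 12579.5 and 12889 UMIs.

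Genes near 0 in H460 and at 10 CPM or more in ldR-H460 were seen in a part of its cells. ANKRD1, a nuclear cofactor induced by stretch and a known target of YAP and TEAD, rose from 2.37 to 97.3 CPM (41.0-fold, 35.0 to 48.4), with 11.6 in mdR-H460, and from 1.12% to 28.6% of cells. Of these, 297 cells held 50% of its UMIs. The 530 cells with 2 or more ANKRD1 UMIs had CYR61 in 72.3%, CTGF in 55.3%, FN1 in 74.5% and SPINK6 in 9.43%, against 46.5%, 33.7%, 55.6% and 4.23% of the other cells, and a lower median depth before thinning (10967 against 13066 UMIs). CYR61 and CTGF, secreted matrix proteins named after their values were seen, are YAP and TEAD targets too. Their summed levels were 106 and 171 CPM for CYR61 and 155 and 114 CPM for CTGF, and of 16 measured YAP and TEAD targets 4 were at least 1.5-fold higher and 2 lower, beside 8.57% and 18.9% of all genes (median log2 ratio 0.00, against -0.12). The stretch from 230 to 31 bases before the ANKRD1 start is shown for the letters GGAATG, the core that TEAD factors are known to bind, in capitals.
ANKRD1 (chr10:90921118-90921317, minus strand): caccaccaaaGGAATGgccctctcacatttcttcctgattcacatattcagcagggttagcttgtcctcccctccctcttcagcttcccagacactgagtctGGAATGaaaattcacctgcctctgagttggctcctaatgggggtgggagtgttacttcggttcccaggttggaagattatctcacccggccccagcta
GGAATG, on either strand, was in 4175 of the 35116 promoters (11.9%), beginning 220 and 128 bases before the ANKRD1 start, and 3 times before that of CTGF. Matches before the start of CYR61 were not looked up.

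Other genes gained from near 0 were lower and in fewer cells. OLFML3, a secreted matrix protein, had no UMI in H460 and was seen in 403 ldR-H460 cells (8.91%) at 18.9 CPM, at least 418-fold above the floor. PKIB, an inhibitor of protein kinase A, went from 0.151 to 22.9 CPM, HPD, an enzyme of tyrosine breakdown, from 0.483 to 26.9, ID4 from 0.725 to 24.9, FAM181B from 0.121 to 12.9 and the cytokine IL18 from 2.27 to 31.6 CPM. No cell had more than 7 UMIs of these genes after thinning, and HPD, OLFML3 and PKIB were not more frequent in cells with 2 or more CXCL8 UMIs (6.08%, 8.96% and 7.63% against 10.9%, 8.90% and 10.7%).

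Some genes kept a like level and changed in how evenly cells shared it. Among 3639 genes at 20 CPM or more in both lines, the share of cells with a UMI was a median of 0.981 of that expected from an equal level in H460 and 0.986 in ldR-H460, and it was under 0.8 for 27 and 18 genes. Of the 8 genes within 1.5-fold with the largest change in this ratio, FN1, the matrix protein fibronectin, was the 1 that became less even. Its level was 228 and 275 CPM, but the cells with a UMI went from 62.9% to 57.8%, the cells that held 50% of its UMIs from 582 to 368, and the highest cell from 21 to 62 UMIs. DDIT4, a stress-induced brake on mTOR, had 50.6 and 49.6 CPM and became more even, with a highest cell of 48 UMIs in H460 and 7 in ldR-H460. CCNL1 (31 and 3 UMIs in the highest cell), JUNB (25 and 8), RSRC2 and RSPO3 also became more even at like levels, as did CENPF and HIST1H4C, which vary over the cell cycle. The share of cells called G2/M differed between the lines, and its part in these 2 was not tested.

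Position in the genome went with direction. Symbols were placed by GENCODE positions on GRCh38, and the regions described here were chosen after the values along the chromosomes were seen. Chromosome 1 split at its centromere. On the long arm, 1q (chr1:145738868-248859144), 316 tested genes had a median log2 ratio of -0.55. Of these, 268 (84.8%) had a ratio below 0 and 63 (19.9%) one of at least 2-fold lower. The short arm, 1p, had 319 tested genes with a median of -0.11 and 18 (5.64%) at least 2-fold lower. The same genes of 1q had a median of -0.54 in mdR-H460 against the shared H460 library. On chromosome 17, the first part of the long arm (chr17:27294076-47685505) had 125 genes with a median of -0.64. Of these, 109 were lower and 23 (18.4%) at least 2-fold lower. The rest of that arm had a median of -0.17 and the short arm -0.08. The border on 17q was set where the leading run of gene blocks with medians at or below -0.25 ended. The low median of the first part and its contrast with the rest therefore follow in part from this choice. Of all 11 blocks of 17q, 7 were at or below -0.25. On 16p (chr16:46407-31794869) the median of 141 genes was -0.37, with 114 below 0 and 13 (9.22%) at least 2-fold lower, a share near the 7.98% of all genes, and on 16q the median was 0.01. Such medians were not limited to these regions. The 69 tested genes of 8p had a median of -0.36, with 13 (18.8%) at least 2-fold lower, and 1 block of 25 genes on Xq had a median of -0.61. These were not followed cell by cell.

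**Figure D3:**
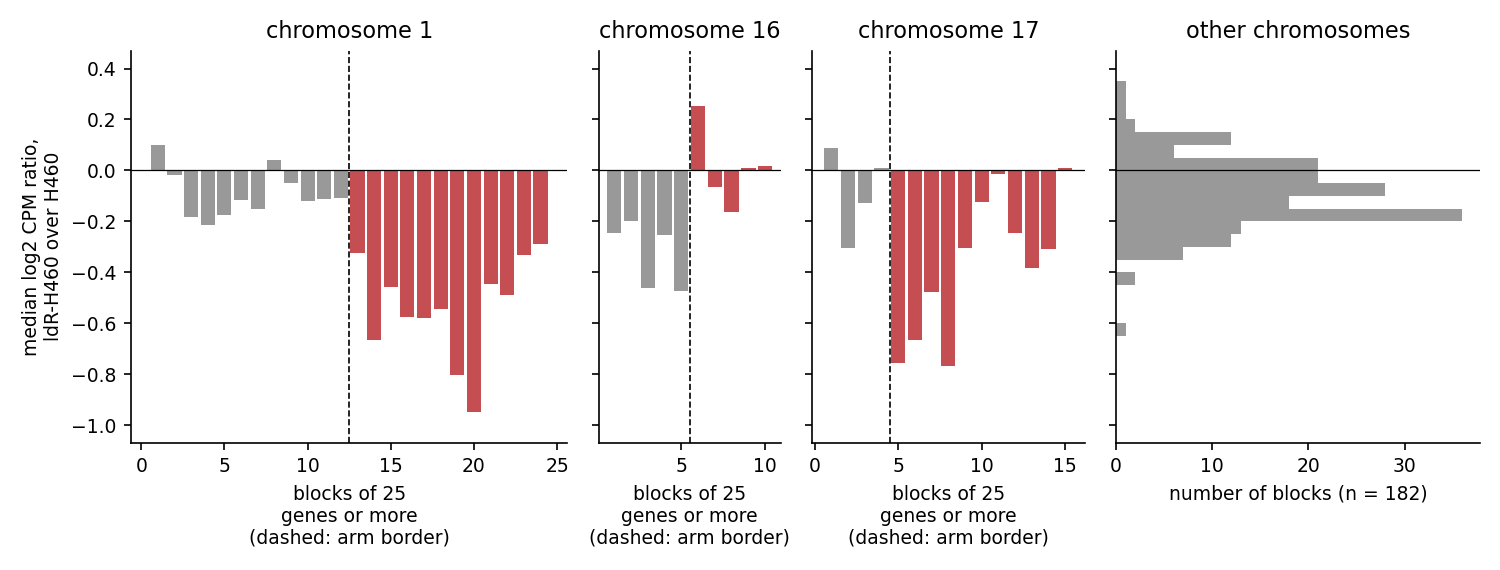
Median log2 CPM ratio of consecutive blocks of 25 tested genes (more in the last block of an arm) along chromosomes 1, 16 and 17 (bars grey for the short arm and red for the long arm), and the distribution of block medians on the other chromosomes (right). All 12 blocks of 1q lie at or below -0.25, and none of the 12 blocks of 1p does.

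The 12 blocks on 1q, 11 of 25 genes and the last of 41, had medians from -0.95 to -0.29. Of the 203 blocks outside 1q, 16p and 17q, 23 were at or below -0.25. The 3 regions together held 582 genes, of which 99 (17%) were at least 2-fold lower, against 398 of 5683 genes (7%) elsewhere. Since the regions were chosen by these same ratios, this contrast was in part set by the choice. Of the 60 lower most-cells genes with a position, 9 lay in the 3 regions, which held 582 of the 6265 tested genes with a position. KRT19 on 17q and CD55, RGS2, SCCPDH, TAGLN2 and S100A6 on 1q were among the 9. The files hold RNA alone, so whether these regions changed in DNA was not tested.

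The regional shift was seen cell by cell. To leave out strongly changed genes, the share of each cell's UMIs from a region was taken over genes under 2-fold apart, in cells with 5000 or more UMIs. For 1q the median was 33.4 per 1000 UMIs in H460 and 24.7 in ldR-H460, and 99.3% of ldR-H460 cells lay below the H460 median. For 1p the medians were 33.2 and 34.5. For the first part of 17q they were 27.2 and 18.7, with 99.96% of ldR-H460 cells below the H460 median, and for 17p 15.1 and 14.7. Without ribosomal protein genes the 17q medians were 7.66 and 5.48 per 1000. The shift was therefore carried by nearly all ldR-H460 cells. The H460 cells were more spread in 17q share (SD 3.10 times that of counting error) than the ldR-H460 cells (1.26 times).

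**Figure D4:**
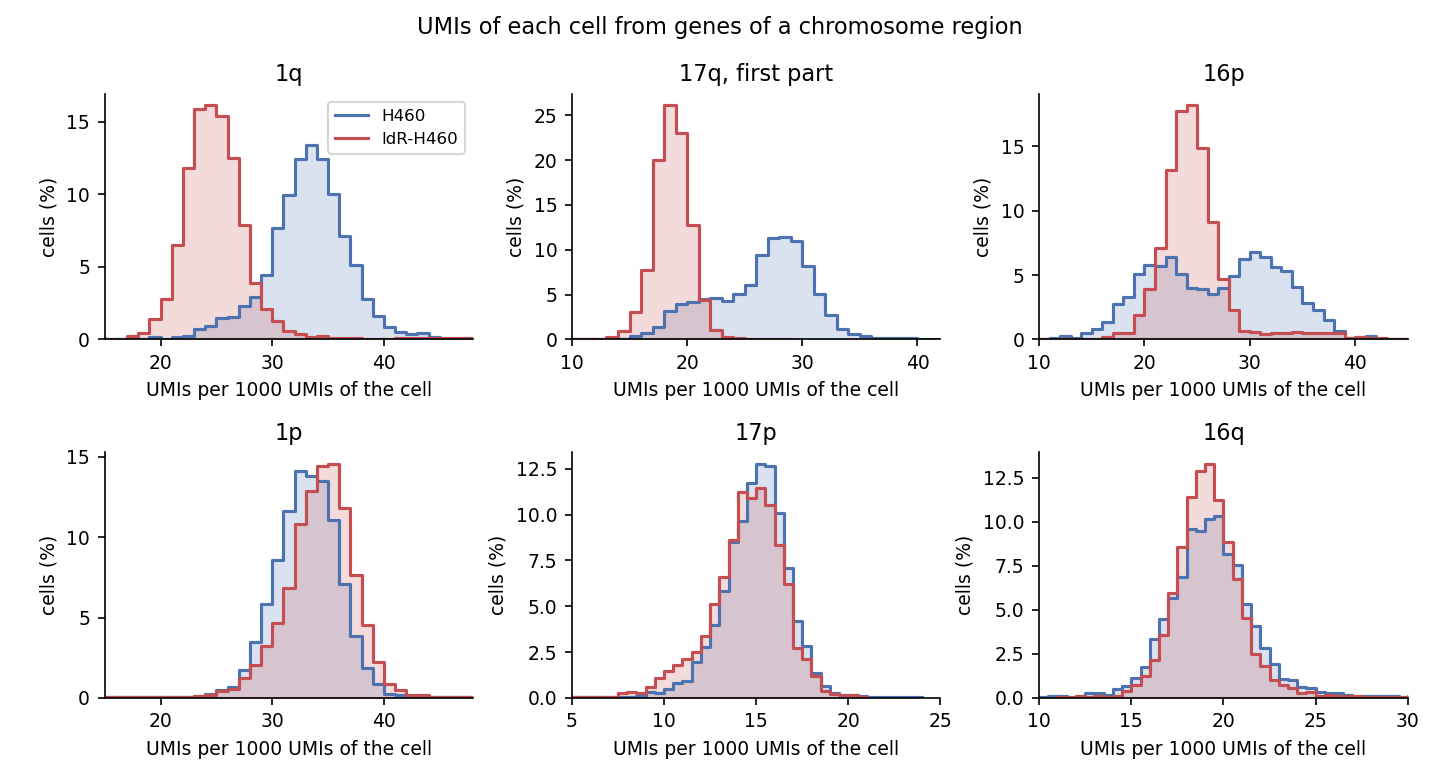
Percent of cells (y axis) by UMIs per 1000 UMIs from genes under 2-fold apart of a region (x axis), H460 blue and ldR-H460 red. The 1q and 17q shares of ldR-H460 lie left of H460, the 1p, 17p and 16q shares overlap, and the 16p share has 2 peaks in H460 and 1 main peak in ldR-H460.

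The 16p share divided the H460 cells themselves. It had 2 peaks in H460, with 443 cells in the bin from 20 to 22 and 506 in the bin from 30 to 32 per 1000, and 292 in the bin between 26 and 28. At or over 27 per 1000 lay 51.4% of H460 cells (49.8% to 53%, Clopper-Pearson), 12.7% of ldR-H460 cells (11.7% to 13.7%) and 7.58% of mdR-H460 cells. The ldR-H460 cells peaked between the 2 H460 peaks, with 1495 cells in the bin from 24 to 26. The limit of 27 therefore does not sort ldR-H460 cells into the 2 H460 groups. The 2 H460 peaks were there without ribosomal protein genes as well, where 54.1% of H460 and 12.1% of ldR-H460 cells lay at or over the dip at 9.75 per 1000. There the ldR-H460 peak (652 cells in the bin from 8 to 8.5) was in the same bin as the lower H460 peak (284 cells). A low 17q share, under the 95th percentile of ldR-H460 (21.1 per 1000), was found in 564 H460 cells (14.6%). Both a low 16p and a low 17q share were found in 127 H460 cells (3.30%) and 3767 ldR-H460 cells (83.3%). The 17q limit was taken from ldR-H460 itself, so nearly all ldR-H460 cells lie under it by construction. The 83.3% and its contrast with the 3.30% were therefore in part set by this choice. Those 127 H460 cells had a median 1q share of 34.9, not the 24.9 of their ldR-H460 counterparts.

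Most of the minority genes were higher in the H460 cells with a low 16p share. The 1872 H460 cells under 27 per 1000 in 16p share were compared with the 1978 cells at or over it, within 1 library and with no test. Of 4450 genes at 20 CPM or more in either group, 37 (0.831%) were at least 2-fold higher in the low-share cells. Of these, 26 were at least 2-fold lower in ldR-H460 and none at least 2-fold higher, beside 390 (8.76%) and 67 (1.51%) of the 4450. Both comparisons use the H460 library, and the 20 CPM limit was applied to H460 cells alone. The split of the 37 genes was therefore in part set by the way they were chosen. ANKRD1, under that limit at 4.06 and 1.31 CPM, was higher in the low-share cells and also higher in ldR-H460. The low-share cells had lower 16p genes by construction (median log2 ratio -0.48). S100A8 stood at 233 and 19.6 CPM (11.9-fold, 10.3 to 13.9), S100A9 at 642 and 71.4, PI3 at 173 and 35.5, FGG at 50.2 and 10.9, PAEP at 215 and 49.6, SLPI at 309 and 114 and DDIT3 at 97.4 and 15.8 CPM. MMP1 (21.3 and 17.4 CPM), HSPA6 (28.2 and 31.1) and CRYAB (83.8 and 53.9) were less than 2-fold apart. Among the most-cells genes the groups were closer, with KRT19 at 2034 and 1566 CPM and CD55 at 1026 and 687 CPM. The cells rich in S100A8, PI3, FGG or PAEP had median 16p shares of 21, 22, 21.8 and 22.1 per 1000, against 27.6 to 28.1 in the other cells, while the MMP1 cells had 27.9 and the others 27.4. SPINK6, under the 20 CPM limit, was the exception among the minority genes, at 9.94 and 1.42 CPM in the H460 groups and higher in ldR-H460.

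**Figure D5:**
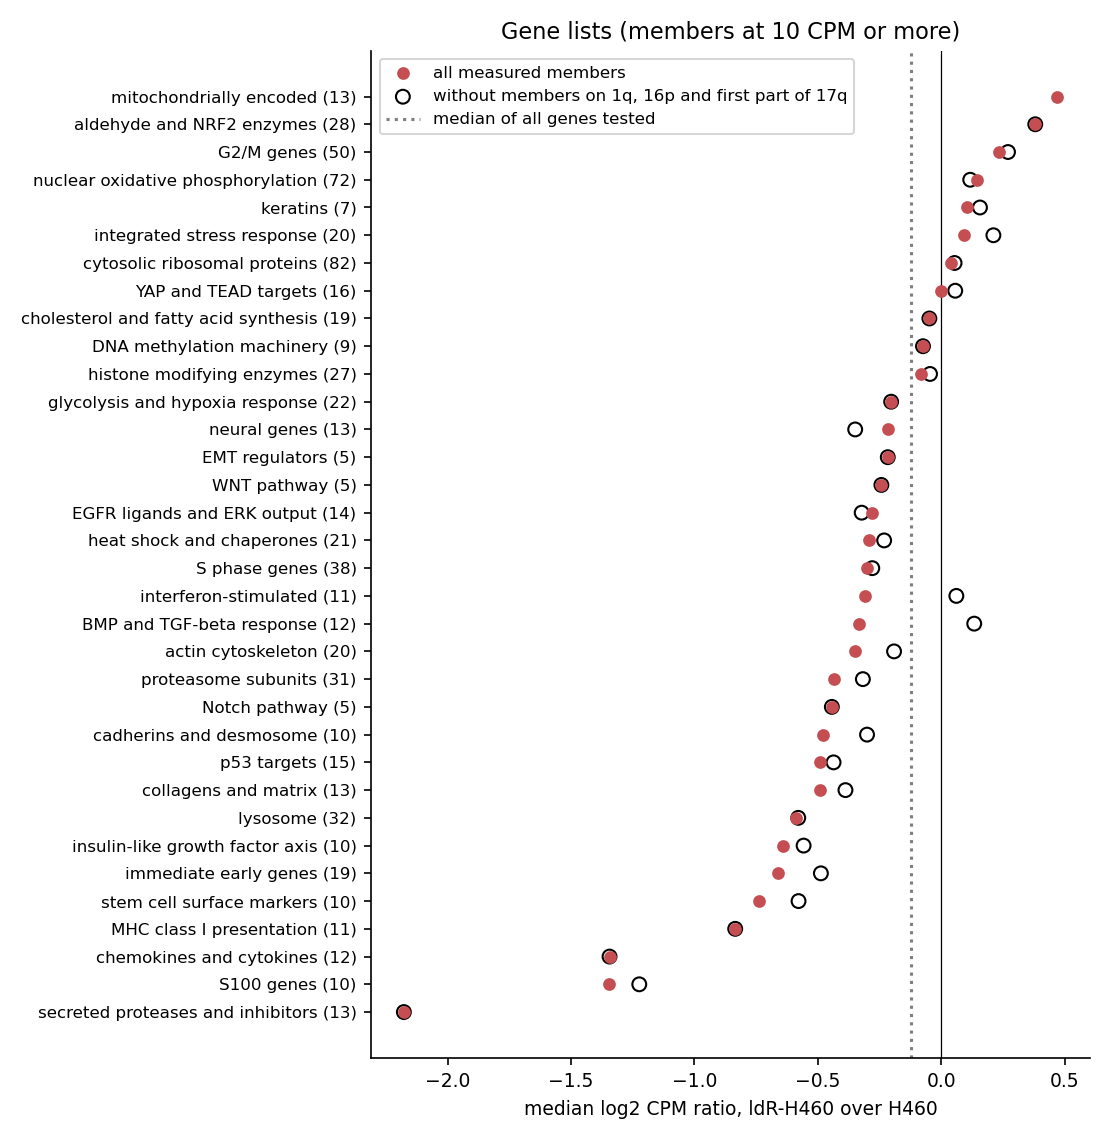
Median log2 CPM ratio of ldR-H460 over H460 (x axis) for gene lists with 5 or more members at 10 CPM (number in brackets): filled points use all measured members and open circles leave out members on 1q, 16p and the first part of 17q. Secreted proteases, S100 genes and chemokines have the lowest medians (-2.18, -1.35 and -1.34), against -0.12 for all genes (dotted line).

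Gene lists were read against all tested genes, of which 18.9% were at least 1.5-fold lower, and against position. Of 10 measured S100 genes 8 were lower, with a median log2 ratio of -1.35, but 9 of the 10 lie in 1q, as did 7 of the 8 lower ones. The secreted proteases and their inhibitors (10 of 13 lower, 2 higher, -2.18) and the chemokines and cytokines (8 of 12 lower, 1 higher, -1.34) had no member in the 3 regions. In the protease list PLAT, the tissue plasminogen activator, went from 14 to 0.364 CPM and SERPINE2 from 650 to 144 CPM. Of 11 genes for MHC class I presentation 8 were lower (-0.83), none of the 11 in the regions: HLA-B stood at 98.7 and 12.8 CPM, the peptide transporter TAP1 at 31.6 and 13.8 and B2M, the invariant chain, at 1532 and 890 CPM. HLA reads can be shared among near-identical genes.

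Lysosomal genes were lower in 16 of 32 (-0.59), 14 of them outside the regions, with the cathepsin CTSL at 390 and 139 CPM and progranulin (GRN) at 63.3 and 16.6. Of 31 proteasome subunits 9 were lower and none higher (-0.44). Of the 9, 4 lie in the regions, and without those regions the median was -0.32. Among 82 cytosolic ribosomal protein genes 4 were lower, 3 of them in the regions (median 0.04), and the 3 lower histone-modifying enzymes of 27, KDM5B, KAT2A and SUZ12, all lie there. The immediate early genes were lower in 10 of 19 (-0.66), with KLF2 at 61.9 and 11.7 CPM and KLF4 at 87.9 and 19.5, and 8 of the 10 were outside the regions. Of 15 p53 targets 7 were lower and 1 higher, the cyclin CCNG1 (42.9 and 133 CPM). Of 13 mitochondrially encoded genes 3 were at least 1.5-fold higher (8.57% of all genes) and none 2-fold, with a median of 0.47, beside the higher mitochondrial share of the ldR-H460 library.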

How the data were processed

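UMI counts per gene symbol and cell, 1 table per line, were used as deposited by the authors; they were whole numbers with no normalization, for cells kept after the authors' quality filter, per the series' design text. The submitters' processing notes list Cell Ranger 3.0.2, Seurat 3.0 and GRCh38; the role of each and the annotation release are not given in the sources used here. No doublet step is stated and none was run.

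Summed UMIs of a line over its library total gave CPM. Genes that reached 10 CPM in either line were compared at 2-fold, and gene lists at 1.5-fold. A count of 0 was set to a floor of 3 UMIs per library. Ratios have exact binomial-based and shares Clopper-Pearson intervals at 95%. With 1 library per line no p-value was computed. Shares of cells were taken after thinning each cell to 5000 UMIs with a fixed seed, and phases were called with scanpy 1.11.5. The thinning and class rules were tested on simulated counts. TMM factors (edgeR 4.0.16) and DESeq2 1.42.0 size factors were alternatives, used on counts for scaling only. Genes were named by rule: the 12 extreme ratios in each direction of the most-cells and minority classes, 6 of the others, the 8 largest gains and losses in CPM, the 8 largest changes in evenness at like level, and up to 4 members of each list, with pseudogenes, symbols of unnamed loci and XIST or Y-linked genes skipped. ID2, MKI67, NQO1, TXNRD1, SERPINE2, B2M, KRT8 and KRT18 are outside the rule, as are genes said to be so in the text, and were chosen after their values were seen. Members, lists and rules were chosen with earlier results of these data known. Promoter sequences are from RefSeq GRCh38.p14 and gene positions from GENCODE on GRCh38. Values of 1 member of the MHC class I list are not reported here. Whether a symbol's UMIs came from overlapping or near-identical genes was not tested.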

Additional observations from a re-analysis of the deposited data

How the results depend on the processing

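No paired analysis was possible because each line is 1 library and no replicate numbers are shared. The count of 218 genes at least 2-fold higher became 337 with a filter at 5 CPM, 129 at 20 CPM, 1507 with no filter and 81 at 3-fold. The count of 523 lower genes became 915 without the top 5% of cells per gene, 2514 with no filter and 227 at 3-fold. The 23 higher most-cells genes became 8 when cells were thinned to 2000 UMIs, 45 at 10000 UMIs, 45 with a limit of 30% of cells and 14 with 70%. The 63 lower ones became 26, 109, 118 and 34 in the same order. The 1 higher minority gene became 0 at 2000 UMIs, 2 with a limit of 0.67 and 0 with a limit of 0.33, and the 9 lower ones stayed between 6 and 12. Fewer genes reach 50% of cells in shallower cells.

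TMM, DESeq2 size factors, totals without mitochondrial and ribosomal genes, equal weight per cell, thinned cells, a common depth window and G1 cells left the counts of higher (218 in the reported setting) and lower genes within 1.5 times. Among 117 named 2-fold genes, 117 kept their sign in each of these settings. In G1 cells 101 of the 117 were still at least 2-fold apart. Like counts can hold other genes: in G1 cells 165 of the 218 higher and 416 of the 523 lower genes were called again. Without the top 5% of cells, FGG, seen in under 5% of thinned cells, reversed to 1.48 and HSPA6 had no value. Chosen after seeing the data, leaving out 1q, 16p and the first part of 17q gave 210 higher and 424 lower genes and 23 and 54 most-cells genes. The median of 1q ranged from -0.69 to -0.43 over the alternatives, that of the first part of 17q from -0.83 to -0.52 and that of 16p from -0.52 to -0.25. Why values moved with a setting was not tested.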

Other observations

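Of 13 measured members of the neural list, 5 were at least 1.5-fold lower and 3 higher in ldR-H460, beside 18.9% and 8.57% of all tested genes. NCAM1, a neural cell adhesion molecule, went from 15.2 to 0.116 CPM, LSAMP, a membrane protein of limbic neurons, from 25.8 to 0.860 and FGF13 from 58.0 to 6.81 CPM. The microtubule-associated proteins MAP2 (9.76 and 27.5 CPM) and MAPT (4.31 and 20.5 CPM) and FAM181B were the 3 higher ones. The neuronal hydrolase UCHL1 was high in both (752 and 539 CPM).

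For several genes mdR-H460 was outside the range of the other lines. RTN1 stood at 24.5 CPM in the parental, 0.33 in the mid-term and 21.1 in the long-term line, IGFBP7 in the same order at 18.9, 1.13 and 11.3 and IGFBP2 at 209, 27.4 and 116 CPM, so ldR-H460 was nearer to H460 than mdR-H460 was. Of the 10 measured genes of the insulin-like growth factor axis 5 were at least 1.5-fold lower in ldR-H460 and none higher. RTN1, UCHL1, FGF13, MAP2 and MAPT were chosen after their values were seen.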
